A study of Mus musculus with 9 samples.

Results

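Sense peaks of SAFB1 binding were examined in the cadherin and protocadherin genes of mouse embryonic stem cells. The members were the protein-coding genes of the GENCODE M21 annotation whose names begin with Cdh, Fat, Dsc or Dsg and a digit, or with Pcdh. This gave 105 of 21951 protein-coding genes. A peak was given to a gene when its midpoint lay in the gene on the same strand, and a peak shared by overlapping members was counted once. The members held 139 of the 18929 sense peaks found in protein-coding genes. Those were part of a deposited list of 30998 peaks.

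Cadherins are membrane proteins whose extracellular repeats bind calcium and hold neighbouring cells together. Classic cadherins link to the actin skeleton through catenins, desmosomal cadherins link to intermediate filaments, and the giant FAT proteins act in planar polarity and growth control. In the clustered protocadherins, each gene of the alpha and gamma clusters has its own promoter and a large variable exon that encodes the ectodomain and the membrane-spanning part, which is spliced to constant exons shared by the cluster. Genes of the beta cluster have a single coding exon. In embryonic stem cells Cdh1 (E-cadherin) is the cadherin best known for holding colonies together.

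The list came from RIP-seq, in which RNA bound to an immunoprecipitated protein is sequenced. SAFB1 is a nuclear protein that binds RNA and DNA. All 9 libraries were from male CAST/B6 Rosa26-RMCE embryonic stem cells treated with doxycycline for 3 days, and they form 5 groups. SAFB1 antibody was used on wild-type cells in 3 libraries, from the parent line and 2 clones. IgG was used on wild-type cells in 2 libraries, as negative control. SAFB1 antibody was used on 2 clones lacking both safb1 and safb2. FLAG antibody was used on 1 such double-knockout clone carrying an eGFP plasmid (1 library) and on the same clone carrying a full-length SAFB1 plasmid (1 library). The last library carries the genotype label WT, but by its title it comes from that clone, and it was grouped by title. A clone stands for 1 isolate of the line.

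The list gives position, width, name and strand, and the same score of 500 for every peak. It has no value per library, so depth is unknown, no replicate spread can be given, and SAFB1 was not compared with IgG or with the double knockout here. No expression level was measured in this list, so the cell type was not checked against its markers here. A gene without a peak may therefore be unbound, weakly transcribed or below the limits of the peak caller, and these cannot be told apart. All intervals below are 95% intervals that treat peaks or genes as independent and cover counting error only. Coordinates are on mm10 (GRCm38).

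Peaks in cadherin genes were concentrated at a few loci. Of the 105 members, 51 held at least 1 peak (48.6%, Wilson interval 39.2 to 58.0), beside 26.2% of all protein-coding genes. Clustered protocadherins, which overlap and share peaks, made up 34 of these genes, and 17 members outside the clusters held a peak. Cdh4 held 39 peaks, the protocadherin gamma cluster 31, Cdh2 16 and Cdh13 16. These 4 loci held 102 of the 139 peaks (73.4%). Per length of merged gene body the members had 11.9 peaks per Mb (exact Poisson interval 10.0 to 14.1), beside 18.0 per Mb (17.7 to 18.2) for all protein-coding genes. At the peak density of other protein-coding genes of the same length class they would have held 203 peaks. The ratio of observed to length-standardised peaks was 0.683 (0.574 to 0.807). The value depended on the leading loci. It was 0.510 without Cdh4, 0.541 without the gamma cluster and 0.283 without Cdh4, Cdh2 and the gamma cluster. These loci were left out for their many peaks, and the other protein-coding genes were not trimmed likewise, so the ratio was bound to fall.

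**Figure D1:**
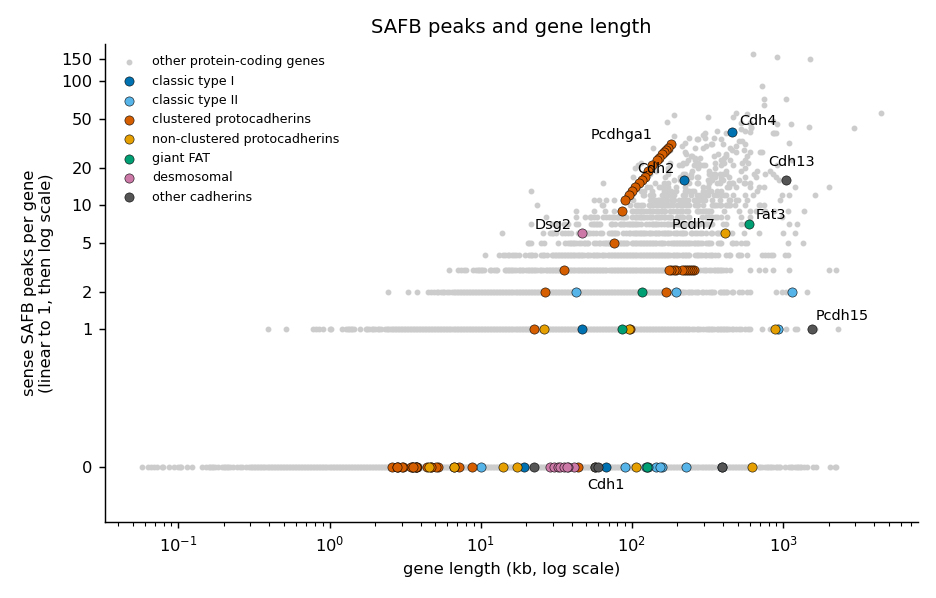
Sense SAFB peaks per gene (vertical axis, linear to 1 and then logarithmic) against gene length in kb (logarithmic axis). Coloured points are the cadherin members by class and grey points the other protein-coding genes. Cdh4 (39 peaks) and the gamma protocadherins (up to 31 shared peaks in Pcdhga1) lie near the upper edge at their lengths, and Pcdh15, the longest member, holds 1 peak.

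Peaks were found mostly in the longer members. In the shortest class, below 10 kb, 0 of 24 members held a peak, beside 6.05% of all protein-coding genes of that length, and 22 of the 24 were clustered genes. Of members of 10 to 30 kb, 3 of 9 held a peak, beside 21.3%. Of members of 30 to 100 kb, 12 of 25 did, beside 42.4%. Of members of 100 to 300 kb, 28 of 36 did, beside 68.1%. Above 300 kb the count was 8 of 11, beside 68.6%. Much of the count between 10 and 300 kb came from overlapping clustered protocadherins that share peaks. Outside the clusters 1 of 7 members of 10 to 30 kb held a peak. There, 5 of 17 members of 30 to 100 kb and 3 of 11 members of 100 to 300 kb did, whereas the 11 members above 300 kb are all outside the clusters.

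The classic type I cadherins, which mediate strong adhesion through catenins, had many peaks for their length. Their 5 genes held 56 peaks, or 69.1 per Mb (52.2 to 89.8), which was 3.84 times the length-standardised count (2.90 to 4.99). Nearly all of these peaks were in 2 genes, and 1 of the 56 was exonic. Cdh4, which encodes R-cadherin of the retina and nervous system, lies on chromosome 2 at 179442431 to 179899373 and spans 457 kb. Its 39 peaks (85.3 per Mb) placed it at percentile 96.4 of density among protein-coding genes above 300 kb and at rank 27 of all protein-coding genes by peak count. Every one of the 39 was intronic, and 34 lay in intron 2, which is 335 kb long and makes up 73.4% of the gene. Intron 2 therefore held 87.2% of the peaks, or 101 per Mb. Intron 8, of 7.60 kb, held 2. The peaks spread along the gene, from 15.3 kb to 437 kb after its start, with a median gap of 6.46 kb. Their widths ran from 74 to 2823 bases with a median of 538.

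Cdh2 encodes N-cadherin of neural and mesenchymal cells. It spans 220 kb on chromosome 18 (16588877 to 16809246, minus strand). Its 16 peaks (72.6 per Mb, percentile 94.3 of genes of 100 to 300 kb) ran from 24.8 kb to 191 kb after the start. Intron 2, of 124 kb, held 8 of them (50.0%) and makes up 56.3% of the gene, so its 64.5 per Mb was below the density of the whole gene. Intron 6, of 3.33 kb, held 3 peaks. A single peak, 164 bases wide, had its midpoint in a coding exon, and it was the only coding peak of a classic cadherin.

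The other type I genes held little. Cdh3 (P-cadherin, 46.4 kb) had 1 peak, in intron 2, 2624 bases wide and 12.8 kb after the gene start. Cdh1, of 66.9 kb on chromosome 8 (106603351 to 106670246), had no sense peak and 1 antisense peak. The density of its length class would put 1.12 peaks in a gene of that size, and a count of 0 is within counting error of that. Cdh15 (M-cadherin of muscle, 19.4 kb) had none, beside 0.332 at the class density.

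Peak names carry a number that rises with position on 42 of 42 chromosome strands. If each number is 1 candidate call, which no source states, the list kept at most 9.11% of the calls. From the first to the last kept peak, 39 of 184 numbers were kept in Cdh4 (21.2%), 16 of 61 in Cdh2 (26.2%) and 31 of 74 in the gamma cluster (41.9%). These spans begin and end at a kept peak, in loci picked for many kept peaks. Their shares therefore cannot be set against the 9.11% of the whole list. Between the kept peaks on either side of Cdh1, which are 154 kb apart, there was room for at most 61 numbers, so a Cdh1 locus without kept peaks need not have been without calls.

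**Figure D2:**
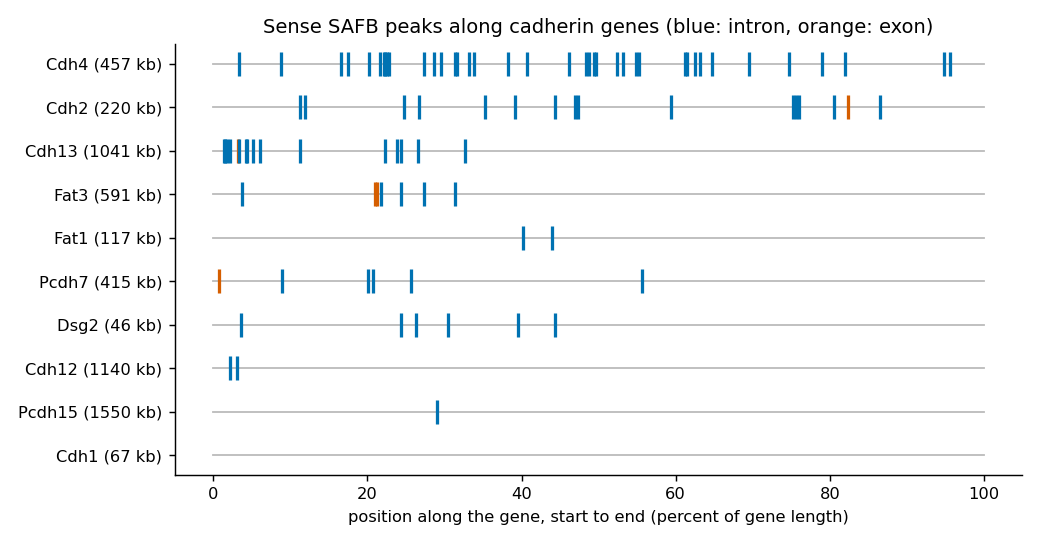
Position of each sense peak along 10 cadherin genes, as a percent of gene length from start to end (horizontal axis), with intronic peaks in blue and exonic peaks in orange. The peaks of Cdh4 spread from 3.36% to 95.6% of the gene, those of Cdh13 end at 32.7%, and Cdh1 has none.

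Classic type II cadherins, many of them expressed in particular neurons, were close to empty. Their 13 genes span 3.73 Mb and held 7 peaks, or 1.88 per Mb (0.754 to 3.87). That was 0.104 of the length-standardised count (0.0416 to 0.213), and the interval does not overlap that of type I. These intervals take peaks as units, and the type I value rests on Cdh4 (39 peaks) and Cdh2 (16). The classes were not compared with genes as units. All 7 peaks were intronic. Cdh5 (VE-cadherin of endothelium, 42.9 kb) held 2 peaks, 277 and 159 bases wide, at 46.6 per Mb. Cdh10 held 2 peaks in 195 kb, and Cdh18 held 1 peak of 90 bases in 925 kb, where the length class would give 15.1. Cdh12 held 2 in 1140 kb, 23.9 and 35.2 kb after its start, and both also lie in a second annotated gene of the same strand, so their source transcript is uncertain. The other 9 genes had none: Cdh6, Cdh7, Cdh8, Cdh9, Cdh11, Cdh19, Cdh20, Cdh22 and Cdh24.

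The protocadherin clusters lie one after another on chromosome 18, in the order alpha, beta and gamma, and their peak counts differed. The gamma cluster (37661793 to 37841873, plus strand, 180 kb) held 31 peaks, or 172 per Mb (117 to 244), which was 7.73 times the length-standardised count (5.25 to 11.0). The alpha cluster (36930184 to 37187661, 257 kb) held 3, or 11.7 per Mb (2.40 to 34.1). The beta cluster (37264938 to 37524479) held 0 peaks in 92.2 kb of merged genes, which allows up to 40.0 per Mb. The intervals of alpha and gamma do not overlap, but each cluster is 1 locus. Over all 57 clustered genes the density was 64.2 per Mb (44.4 to 89.7).

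Within the gamma cluster the peaks lay on the variable exons. All 21 first coding exons of its genes, which are 2364 to 2460 bases long, held at least 1 peak midpoint (100%, Wilson interval 84.5 to 100). By the same measure 0 of 14 did in the alpha cluster (0 to 21.5) and 0 of 22 in the beta cluster (0 to 14.9), although the exons are of like length. Of the 31 gamma peaks, 25 had their midpoint in the coding part of these exons. A further 1 lay in the matching exon of Pcdhgb8, which is annotated as a polymorphic pseudogene and is no member. The other 5 had midpoints outside these coding parts, 2 of them in the 5′ untranslated part of an exon. None lay in the constant exons, and the last peak ended 20.9 kb before the end of the cluster. The density over the variable exons was 492 peaks per Mb. A total of 18 exons held 1 peak, Pcdhga5 and Pcdhga6 held 2 each and Pcdhga11 held 3.

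**Figure D3:**
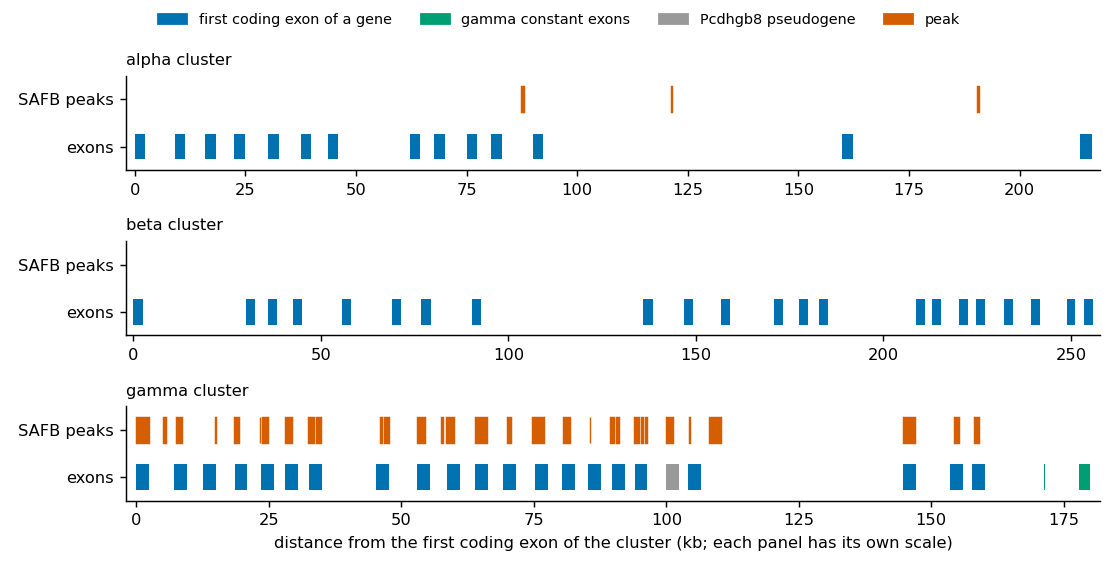
First coding exons (blue), gamma constant exons (green), the Pcdhgb8 pseudogene exon (grey) and sense SAFB peaks (orange) along the 3 protocadherin clusters, in kb from the first coding exon of each cluster, with a scale of its own in each panel. All 21 gamma exons hold at least 1 peak, the 3 alpha peaks lie between exons, and the beta panel has no peak.

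The peaks covered 50.2% of the bases of the gamma variable exons, with a median of 48.2% per exon. Coverage ranged from 4.76% in Pcdhga10 and 5.02% in Pcdhga3 to 92.1% in Pcdhga8, 93.9% in Pcdhgc3 and 98.2% in Pcdhga1, so exons of nearly the same length differed widely. The widest peak, of 2466 bases, was the one on Pcdhga1. No peak ran past the 3′ end of its exon, and 9 of the 25 began upstream of the coding start. The median gap between neighbouring peak midpoints was 4.21 kb.

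**Figure D4:**
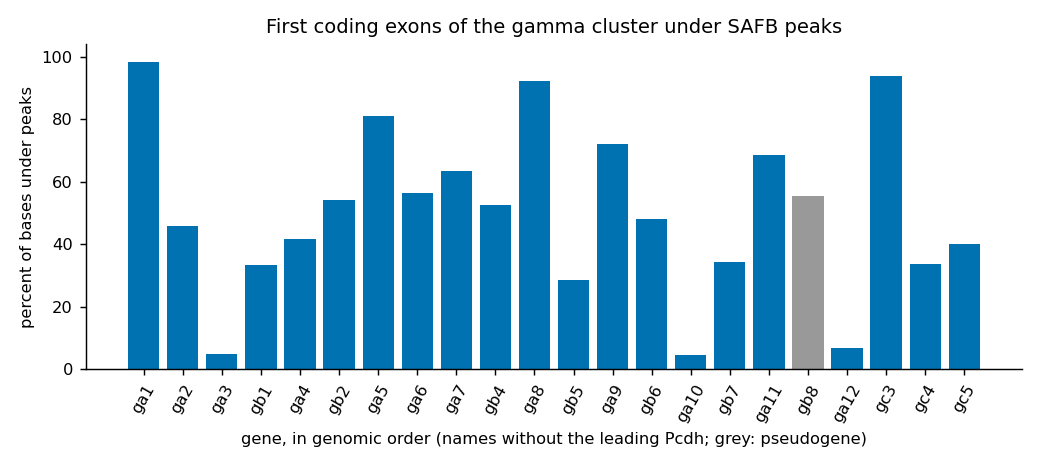
Percent of the bases of each gamma first coding exon that lie under SAFB peaks (vertical axis), in genomic order. Bars run from 4.76% (Pcdhga10) to 98.2% (Pcdhga1), and every gene has a bar above 0.

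Because gamma genes all end at the shared constant exons, each peak lies in every gene that starts upstream of it. Counted per gene, Pcdhga1 held 31 peaks, Pcdhga2 29, Pcdhga3 28, Pcdhgb1 27, Pcdhga4 26, Pcdhgb2 24, Pcdhga5 23, Pcdhga6 21 and Pcdhga7 19. With Cdh4 these were the 10 members with most peaks. The count fell through Pcdhgb4, Pcdhga8, Pcdhgb5, Pcdhga9, Pcdhgb6, Pcdhga10, Pcdhgb7, Pcdhga11, Pcdhga12, Pcdhgc3 and Pcdhgc4 to 1 in Pcdhgc5. These per-gene counts are not independent. A peak on a variable exon is exonic for its own gene and intronic for the genes upstream, and the list does not tell which transcript was bound. All clustered peaks also lie in read-through genes of the same strand in the annotation, so leaving out peaks shared with another gene removes all 34 of them.

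The alpha peaks were 546, 366 and 381 bases wide, all intronic, and covered by 11, 12 and 13 alpha genes in turn. They gave a count of 3 to Pcdha1 through Pcdha9 and to the 2 genes annotated as Pcdha11, of 2 to Pcdha12 and of 1 to Pcdhac1, and none to Pcdhac2. Between the kept peaks that flank the alpha cluster, which are 876 kb apart, lie at most 39 numbers, the 3 kept ones included. On the beta side at most 2 numbers were left between the kept peaks flanking the cluster, which are 423 kb apart. No source used here says how reads that map to several places were treated. The share of 75-base stretches of a first coding exon that also occur in another clustered gene's exon had a median of 9.59% in alpha (0 to 16.4), 1.77% in beta (0 to 5.98) and 0% in gamma (0 to 14.6). The part of this sharing in the difference was not tested.

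The classes also differed in how many of their peaks were exonic. Of the 139 peaks, 34 had their midpoint in an exon of a member (24.5%, interval 18.1 to 32.2), beside 15.1% of the sense peaks of all protein-coding genes. Exons make up 5.05% of the members' length. By class the exonic share was 79.4% in the clustered protocadherins (27 of 34, interval 63.2 to 89.7), where exons make up 38.0% of the length, and 1.79% in type I, where they make up 3.40%. Without the gamma cluster the share over all members was 6.48%. By place, 31 peaks lay in coding sequence, 2 in untranslated parts, 1 in an exon of a non-coding transcript and 105 in introns. Protocadherins held 28 of the 31 coding peaks, and 30 of the 31 were in coding exons of at least 2000 bases.

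**Figure D5:**
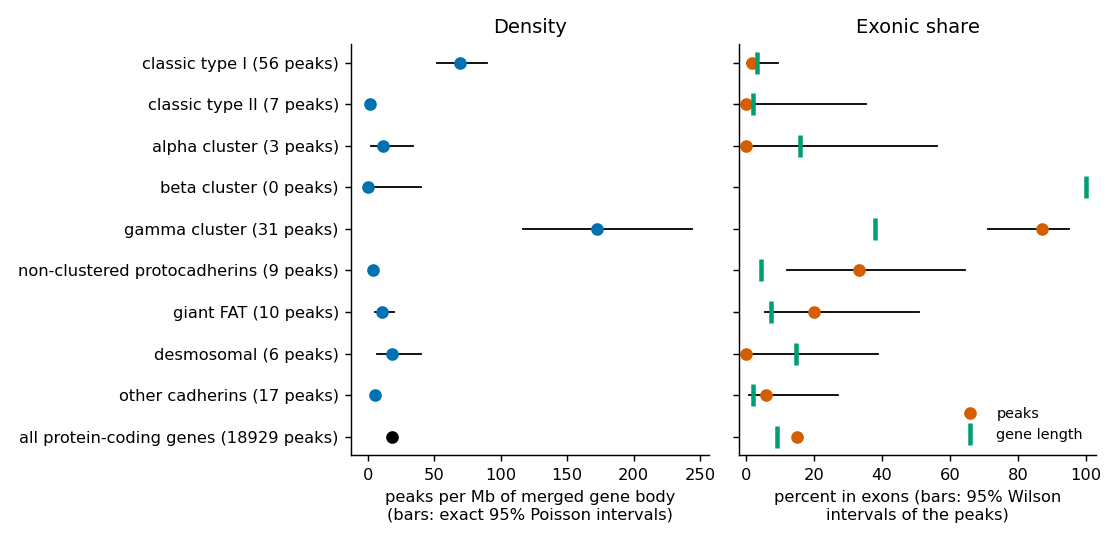
Left, sense peaks per Mb of merged gene body for each cadherin class, with exact 95% Poisson intervals. Right, percent of peaks in exons (orange, 95% Wilson intervals) beside the percent of gene length that is exonic (green). The gamma cluster (172 per Mb, 87.1% exonic) stands above the other classes on both, and the beta cluster has no peak to place.

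Large coding exons were compared across the genome, with a minimum of 2000 bases that was chosen after the values were seen. A peak midpoint lay in 99 of 750 such exons of protein-coding genes (13.2%), and in 74 of the 674 that belong to no member (11.0%, interval 8.84 to 13.6). The gamma exons, at 21 of 21, lie outside that interval. They belong to 1 locus, however, and do not stand for 21 independent genes. Alpha exons (0 of 14, interval 0 to 21.5) and beta exons (0 of 22, 0 to 14.9) were empty, and both intervals include 11.0%. Of the 11 large exons of non-clustered protocadherins 3 held a peak (27.3%, 9.75 to 56.6), and of the 8 of the FAT genes 1 did (12.5%, 2.24 to 47.1). The wide intervals of these small groups include the value of the other genes.

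Non-clustered protocadherins, single genes with a large exon for the ectodomain and roles mostly in the nervous system, held 9 peaks in 2.24 Mb over 11 genes. That was 4.02 per Mb (1.84 to 7.63) and 0.242 of the length-standardised count (0.110 to 0.459). Of the genes, 3 had a peak across the large exon. In Pcdh17 it was 2425 bases wide over a coding exon of 2559 bases, in Pcdh1 2119 bases over 2277, and in Pcdh7 2053 bases over 3174. For Pcdh17 and Pcdh1 it was the only peak. Pcdh7, of 415 kb, held 5 more in its introns, 4 of them in intron 1, and Pcdh9 held a single intronic peak of 184 bases in 877 kb. The other 7 genes had none, namely Pcdh8, Pcdh10, Pcdh11x, Pcdh12, Pcdh18, Pcdh19 and Pcdh20. Pcdh11x and Pcdh9 are among the longest members, at 620 and 877 kb.

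SAFB proteins are described as preferring purine-rich RNA, so the RNA under the coding peaks was read from the GENCODE M21 transcripts. The sequences below are the 200-base windows with most matches to the purine hexamer GAAGAA and to its forms shifted by 1 base, AGAAGA on one side and on the other AAGAAG, in 4 coding peaks of Pcdh17, Pcdh7 and Fat3, shown as examples of large-exon peaks outside the gamma cluster. Among windows with equally many matches, the one with most purine was taken. The Fat3 peak of 827 bases had no match, so its window was chosen by purine alone. That window was 59.0% purine, beside 44.5% in the central window of the same peak. The large-exon peak of Pcdh1 is not shown. Matches are in capitals, the hexamers overlap one another, and letters run 5′ to 3′ on the transcribed strand (mm10). The windows are chr14:84448248-84448447 (plus strand), chr5:57720749-57720948 (plus), chr9:16376731-16376930 (minus) and chr9:16375503-16375702 (minus).
Pcdh17 peak of 2425 bases: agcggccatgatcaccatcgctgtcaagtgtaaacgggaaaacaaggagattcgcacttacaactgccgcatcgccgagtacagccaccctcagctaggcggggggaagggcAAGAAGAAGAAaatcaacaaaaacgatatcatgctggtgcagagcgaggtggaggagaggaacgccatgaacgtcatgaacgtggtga
Pcdh7 peak of 2053 bases: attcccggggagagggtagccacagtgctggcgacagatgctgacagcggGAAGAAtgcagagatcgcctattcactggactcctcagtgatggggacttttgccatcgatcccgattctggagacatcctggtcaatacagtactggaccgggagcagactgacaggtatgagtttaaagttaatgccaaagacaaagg
Fat3 peak of 1947 bases: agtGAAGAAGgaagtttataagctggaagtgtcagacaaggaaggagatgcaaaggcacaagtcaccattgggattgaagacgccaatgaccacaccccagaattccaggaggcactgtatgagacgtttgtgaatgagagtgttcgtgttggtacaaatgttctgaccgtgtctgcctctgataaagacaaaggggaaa
Fat3 peak of 827 bases: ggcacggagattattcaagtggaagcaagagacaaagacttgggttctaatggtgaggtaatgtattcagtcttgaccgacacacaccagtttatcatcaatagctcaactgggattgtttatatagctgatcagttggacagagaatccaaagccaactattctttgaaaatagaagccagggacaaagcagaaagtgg
The Pcdh17 window held all 6 matches of its peak. It was 63.5% purine, beside 54.0% in the central window and 50.4% over the whole peak. The choice of windows favoured purine, so 63.5% does not describe the peak. The Pcdh7 window held 1 match of the 2 in its peak. The window of the wider Fat3 peak held 2 of 5, and the narrower Fat3 peak had none.

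Purine content under exonic cadherin peaks was near even. It was 51.6% over the 34 exonic peaks of the members and 53.4% over the 2856 of all protein-coding genes. The hexamers occurred at 2.07 per kb in the members and 4.62 per kb in all. A central 200-base window held at least 1 of them in 7 of 28 member peaks wide enough for a window (25.0%), beside 37.5% of 2000 windows of all genes. All 7 were in the gamma cluster (7 of 22), and 0 of the 6 central windows outside it held one, those of Pcdh17, Pcdh7 and Fat3 included. For non-member peaks in coding exons of at least 2000 bases, 38 of 77 central windows (49.4%) held a match. On the opposite strand the same hexamers were in 28.6% of member windows and 14.8% of windows of all genes. There, the gamma cluster had 8 of 22 (36.4%) and the non-member peaks in large coding exons 14.3%. A match describes these letters and not a binding site. In the gamma cluster the bases of the variable exons under peaks were 51.1% purine and those outside 48.6%, and 15 of the 21 exons were richer in purine under the peak. The empty alpha exons were 51.9% purine, above the gamma exons at 49.9%, and the beta exons 50.4%. Hexamers per kb were 1.19 in alpha, 1.31 in beta and 1.59 in gamma exons.

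The giant FAT cadherins, whose proteins carry long arrays of cadherin repeats, held 10 peaks in 0.919 Mb over 4 genes, or 10.9 per Mb (5.22 to 20.0). Their ratio to the length-standardised count was 0.608 (0.291 to 1.12), an interval that includes 1.00. Fat3 (591 kb, chromosome 9, 15910189 to 16501285, minus strand) held 7 peaks of 216 to 1947 bases, all between 3.67% and 31.4% of the gene. A pair of these, of 827 and 1947 bases, lay side by side in 1 coding exon of 3277 bases, and 4 were in intron 2. Fat1 (117 kb), a FAT gene broadly used in epithelia, held 2, of 108 and 1479 bases, both in intron 1, with 3 antisense peaks. Fat2 (86.0 kb) held 1 of 618 bases in intron 20. Fat4 (125 kb), which binds Dchs1 across cells, held none where its length class would give 2.78, and its 2 large coding exons were empty.

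Among the 9 desmosomal genes only Dsg2, the desmoglein found in all tissues with desmosomes, held peaks. It had 6 intronic peaks in 46.4 kb, or 129 per Mb, at percentile 99.2 of genes of 30 to 100 kb. The widths were 434 to 2150 bases. Intron 1 held 4 and intron 3 held 2, and the last lay at 44.4% of the gene. Its neighbours Dsg1a, Dsg1b, Dsg1c, Dsg3 and Dsg4 and the desmocollins Dsc1, Dsc2 and Dsc3, most of them known from skin, held none, each with 0.494 to 0.692 peaks at its class density. The class as a whole was at 18.5 per Mb (6.80 to 40.3), close to all genes, and rested on that gene alone.

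The remaining cadherins held 17 peaks in 3.12 Mb. Cdh13 encodes T-cadherin, which is anchored in the membrane by a lipid and has no cytoplasmic part. It spans 1041 kb on chromosome 8 (118283733 to 119324921) and held 16 peaks, or 15.4 per Mb, close to the 17.0 that its length class would give. All 16 lay in introns 1 and 2 of its longest coding transcript, 11 in intron 1 and 5 in intron 2, and 10 of them within 62.5 kb of the gene start. The last was 340 kb in, at 32.7% of the gene, and the rest of the gene was empty. A peak of 322 bases among them lay on an exon of a non-coding transcript. Pcdh15, a tip-link protein of hair cells and the longest member at 1550 kb, held 1 peak of 76 bases where its length class would give 25.3. Cdh23, its tip-link partner, held none in 394 kb, and Cdh16, Cdh17 and Cdh26 held none.

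Intronic cadherin peaks lay farther from exons than those of all genes, and Cdh4 set much of the distance. Their median distance to the nearest exon was 28.2 kb over 105 peaks, beside 5.23 kb over all intronic sense peaks, and 6 (5.71%) lay within 1 kb, beside 17.8%. Without the 39 peaks of Cdh4 the median over the other 66 was 12.1 kb, and 6 of them (9.09%) lay within 1 kb. Cadherin introns are long, and their part in this distance was not tested. Intronic peaks of the members were narrower than those of all genes, with a median of 473 bases (quartiles 255 and 924) beside 638 (313 and 1173). Exonic peaks were wider, with a median of 993 bases (521 and 1608) beside 770 (307 and 1321). The quartile ranges overlap in both comparisons.

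Most peaks lay on the sense strand. The opposite strand of the members held 16 peaks outside sense protein-coding genes, so that 89.7% of the peaks were sense, beside 82.8% for all protein-coding genes. Cdh4 had 5 antisense peaks beside 39 sense peaks, and Cdh18 had 3 beside 1. The gamma cluster had 2 beside 31, and Cdh2 and Dsg2 1 each.

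Genes near the members in structure or function were counted from lists. Of 14 other genes of the cadherin superfamily 4 held a peak (28.6%, Wilson interval 11.7 to 54.6), a share near the 26.2% of all protein-coding genes. Each held 1 peak, namely Celsr2, which is also an adhesion G-protein-coupled receptor, where the peak was exonic, Dchs2, Clstn2 and Clstn3. They would hold 23.7 peaks at the density of their length classes. Of 16 cytoplasmic or other partners 5 held a peak (31.2%, 14.2 to 55.6), again near the 26.2% of all genes. They held 68 peaks in all, beside 76.1 at the density of their length classes. Ctnnd2, a catenin of neurons, held 48 of these, Ctnna2 7, Pkp4 6, Vcl 6 and Pkp2 1. The other partners on the list had none, namely Ctnnb1, Jup, Ctnna1, Ctnna3, Ctnnd1, Arvcf, Pkp1, Pkp3, Afdn, Dsp and Fjx1.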

How the data were processed

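RIP-seq was done with SAFB1, IgG or FLAG antibodies in 9 libraries. The deposited file was 1 list for the whole series with positions in columns of the unit "other" and a constant score (500). The submitters' processing notes name STAR, Subread, featureCounts and mm10, without versions. The peak caller, its thresholds and any pooling of libraries were not given in the sources used here. Per the labels, ribosomal RNA was removed and ERCC spike-in added.

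Peak starts were taken as counted from 0. Peaks were assigned by midpoint to GENCODE M21 genes on their strand. Overlapping genes were merged before the densities of members, classes and all protein-coding genes. Length-standardised counts apply the density of non-member genes in 5 length classes, with edges at 10, 30, 100 and 300 kb. Non-member genes were not merged for this, so a peak in overlapping genes counts in each. Some non-member genes share peaks with members. Intervals are Wilson for shares and exact Poisson for counts. Assignment was tested on simulated peaks. Python 3.11.15, scipy 1.17.1, numpy 2.4.6 and matplotlib 3.10.9 were used. Planned comparisons between libraries were not run because the list has no value per library; the tests were replaced by counts with intervals.

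Members and lists were chosen with earlier results of these data known. Every member with a peak was named; fuller values were given for the 10 members with most peaks, Cdh1 to Cdh3, Fat1 to Fat4 and the 3 clusters. Members without a peak were named by class where it has few genes. Alternatives covered overlap rules, peak width, other genes of the strand, length bins, exon sets and left-out loci. Intron sequence was not used here.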

Additional observations from a re-analysis of the deposited data

How the results depend on the processing

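With at least 1 base in the gene, or the whole peak in it, counts of peaks and of genes, the length ratio, the exonic share and the class densities kept their level. Restricting to widths of 596 bases, the median of the list, or more gave 68 peaks in the members, an exonic share of 35.3%, and densities per Mb of 32.1 in type I, 0.536 in type II, 41.5 in clustered protocadherins and 1.28 in other cadherins. Type I stayed above type II and fell below the clustered protocadherins. Leaving out member peaks that lie in another gene of the strand gave 16 genes with a peak and an exonic share of 6.80%. It also gave 0 per Mb in clustered protocadherins, because all of those peaks lie in read-through genes too. The ratio was then 0.506, but peaks of non-member genes were not filtered in this way, so this rule could only lower it. Without Cdh4 the ratio was 0.510, the exonic share 34.0% and type I 48.1 per Mb, again below the clustered protocadherins at 64.2. Chosen after seeing the data, leaving out the gamma cluster gave a ratio of 0.541 and an exonic share of 6.48%, leaving out the clustered protocadherins gave 17 genes with a peak, and leaving out Cdh2, Cdh4 and the gamma cluster gave a ratio of 0.283. Also chosen after seeing the data, the median distance of intronic peaks to an exon was 12.1 kb without Cdh4. With peaks of at least the median width 17 of the gamma first coding exons held a peak. No paired analysis was possible because the list holds no value per library. Depth per library is unknown, so precision from depth cannot be stated.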
